A study of Mus musculus with 394 samples.

Results

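This section describes the RNA bound to tagged ribosomes of dopamine neurons in the ventral tegmental area (VTA) of adult mice, set against the RNA of the whole dissected tissue. The 6 libraries are the full-length VTA libraries of Cre-positive mice, 3 ribosome immunoprecipitates (IP) and 3 Inputs, out of 394 libraries in the series, and they were chosen by the tissue and preparation named in their labels. All 6 came from mice aged 10 to 14 months that were heterozygous for DAT-IRES-Cre and for the RiboTag allele (DAT-IRES-Cre/wt;RiboTag+/-), so IP and Input share genotype, age and library batch and differ in the capture step. In these mice Cre, made from the dopamine transporter locus, switches on an HA-tagged form of the ribosomal protein eL22 wherever that locus has been active, and anti-HA beads then pull out the tagged ribosomes with their mRNA. Input is 5% of the cleared lysate from which the IP was made. The VTA was separated from the substantia nigra pars compacta (SNc) by a vertical cut at its lateral edge after the substantia nigra pars reticulata (SNr) had been removed, so its edge follows a knife and not a cell border. The SNc and SNr libraries compared below came from Cre-positive mice of the same age range. Other VTA libraries, counted by molecular identifier (UMI), are used below for background capture. They came from mice of 10 to 14 months, either Cre-positive or Cre-negative (RiboTag+/- without Cre). Whether a library is 1 mouse, and which Input belongs to which IP, is not given in the sources used here, so the p-values measure the spread between libraries only.

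Dopamine neurons make dopamine from tyrosine in a pair of enzymatic steps, load it into vesicles, release it, and take it up again through the dopamine transporter. VTA dopamine neurons project mainly to ventral striatum and cortex, and many of them carry calbindin or can also release glutamate, whereas many SNc neurons carry Aldh1a1 and Sox6 and are more prone to degenerate in Parkinson's disease. Their identity is held by transcription factors such as Nr4a2, Pitx3, Lmx1b, Foxa1/2 and En1/2, several of which remain expressed in adult cells.

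The start regions of 2 of the genes that the comparison turns on, Th and Ddc, are shown because these genes encode the successive enzymes of dopamine synthesis. The sequences are from RefSeq (GRCm38.p6), are the 100 bases that precede an annotated start, and are written 5′ to 3′ on the gene's own strand. Capitals mark a cAMP response element (TGACGTCA) in Th and the reverse complement (TGACCTTT) of an NBRE (AAAGGTCA), the octamer bound by Nr4a family receptors, in Ddc.
Th, chr7:142899996-142900095, minus strand: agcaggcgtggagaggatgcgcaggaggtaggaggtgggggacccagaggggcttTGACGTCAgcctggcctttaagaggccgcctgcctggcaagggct
Ddc, the first of 2 annotated starts, chr11:11898145-11898244, minus strand: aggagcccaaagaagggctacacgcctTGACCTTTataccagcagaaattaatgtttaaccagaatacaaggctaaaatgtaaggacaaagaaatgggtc
The Th match lay 45 to 38 bases before its start and the Ddc match 73 to 66 bases before. With both strands searched in the 250 bases before each of 32851 starts, the first motif was present in 1.55% of windows and the second in 1.34%. Neither was found in this window of the second Ddc start, of Slc6a3 or of Slc18a2. These are matches of letters only and say nothing of binding.

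The Input libraries held 3059148 to 15630392 counted reads and the IP libraries 4738834 to 11363737. Genes of the mitochondrial genome took 26.63% to 28.87% of reads in Input and 0.78% to 1.13% in IP. Levels below are CPM values, read counts scaled to a common library size by TMM, which aligns libraries on the bulk of their genes, over the 18 full-length libraries (VTA, SNc and SNr), and fold changes are IP over Input from edgeR fitted to the 6 VTA libraries, with a Benjamini-Hochberg adjusted p below 0.05 taken as a call. In all 6 libraries Xist, the X-inactivation RNA, was at most 5.06 CPM and the Y-linked Ddx3y at least 32.5 CPM; these 2 genes were picked after their values were seen.

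Of 14742 genes tested, 7245 (49.1%) differed between VTA IP and Input, 3469 (23.5%) higher and 3776 (25.6%) lower in IP. The typical size was unequal: the median log2 fold change was 0.76 among genes called higher and −1.47 among those called lower, and 1012 genes rose more than 2-fold whereas 2461 fell more than 2-fold. Beyond 16-fold there were 9 genes higher and 276 lower. The split depends on the scaling, because scaling by total counts moved the median of all genes from −0.01 to 0.33 and gave 5638 genes higher and 2665 lower (67.9% of calls higher, against 47.9%). A lower value is a smaller share of the captured RNA than of the Input RNA. Whether it reflects RNA of cells without the tag or RNA not bound to tagged ribosomes was not tested. Among gene classes, 78 of 230 tested lincRNAs fell and 9 rose, and 35 of 165 antisense genes fell and 8 rose. The kit marks strand but the strand setting of the counting is not given, so antisense genes and their partners may share reads.

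**Figure D1:**
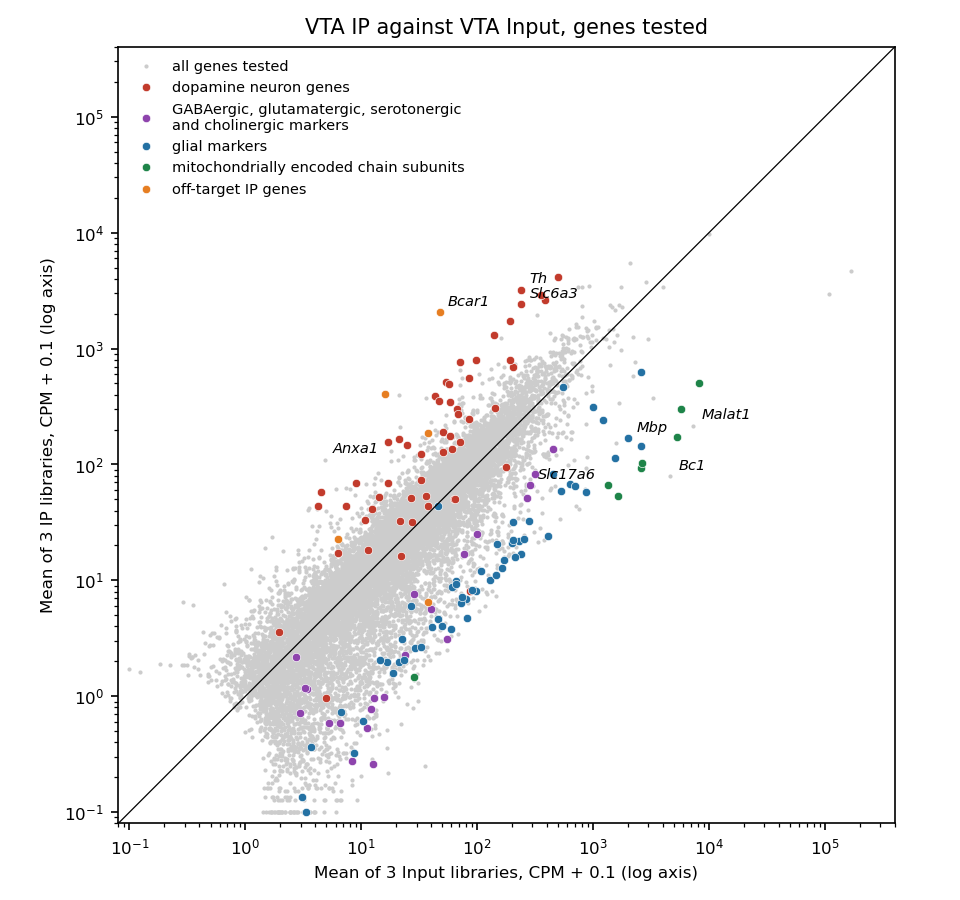
Mean level of each tested gene in the 3 VTA Input libraries (x axis, CPM + 0.1, log) against the 3 VTA IP libraries (y axis, CPM + 0.1, log); the line marks equality and colours mark gene lists. Dopamine neuron genes lie mostly above the line, glial markers and mitochondrially encoded subunits below it, and Bcar1 lies farthest above it among the named genes.

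The genes of dopamine synthesis were enriched in the VTA IP. Th, tyrosine hydroxylase, the rate-limiting enzyme (chr7:142892752-142931128), was at 235, 243 and 233 CPM in Input and 3157, 3458 and 3076 CPM in IP. The groups did not overlap, as was so for 29.2% of all genes tested with IP above Input and 29.6% with IP below, and Th rose 13.3-fold (log2 3.74 ± 0.072 SE, n = 3 per group, adjusted p = 8.5e-15). Ddc, aromatic amino acid decarboxylase (chr11:11814101-11898144), was at 184, 209 and 179 CPM in Input and 1581, 1829 and 1781 CPM in IP, a log2 rise of 3.15 ± 0.086. Gch1, which starts the synthesis of the cofactor tetrahydrobiopterin, rose from 15.0, 19.5 and 16.2 CPM to 141, 173 and 159 CPM, the same log2 value of 3.15 ± 0.13. The other cofactor genes moved less. Pcbd1, which recycles the cofactor, rose by 1.67 ± 0.21, and Spr, the last enzyme of its synthesis, rose by 0.54 ± 0.18, a call that was lost without Input replicate 1 (0.44, adjusted p = 0.0625). Qdpr, which also regenerates the cofactor, went the other way, from 173, 177 and 181 CPM to 96.4, 99.4 and 91.3 CPM (−0.92 ± 0.085). Pts gave 0.59 ± 0.26 and did not pass (adjusted p = 0.078), though it did without Input replicate 2 or IP replicate 2 (0.85 and 0.75). In all, 5 of 7 tested genes of synthesis rose and 1 fell. Dbh and Pnmt, which make noradrenaline and adrenaline, had no read in any of the 6 libraries.

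Genes of dopamine transport were enriched as well. Slc6a3, the dopamine transporter and the locus that carries Cre (chr13:73536747-73578672), was at 240, 251 and 228 CPM in Input and 2434, 2591 and 2222 CPM in IP (3.30 ± 0.077). Slc18a2, the vesicular monoamine transporter (chr19:59260896-59296012), rose from 132, 147 and 144 to 1260, 1357 and 1286 CPM (3.17 ± 0.075), and Slc10a4, a vesicle protein of monoamine and cholinergic neurons, rose by 3.24 ± 0.080. Of the breakdown enzymes, Maoa rose by 1.30 ± 0.15 with IP levels of 125, 99.0 and 161 CPM. Maob did not pass, with a log2 value of 0.18 ± 0.19. Aldh1a1, an aldehyde and retinal dehydrogenase, rose by 3.01 ± 0.075 and Aldh1a7 by 3.62 ± 0.18, but these near-identical neighbours on chromosome 19 can share reads, so how the signal divides between them is uncertain. Aldh2 fell by 0.35 ± 0.12, a call that was lost without Input replicate 1, Input replicate 2 or IP replicate 3 and with total counts (−0.01). Counted together, 6 of 9 tested genes rose and 1 fell. Per kilobase of exon (GENCODE vM21), IP levels were 1366 CPM for Th, 699 for Slc6a3, 388 for Ddc, 249 for Slc18a2 and 25.2 for Gch1.

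**Figure D2:**
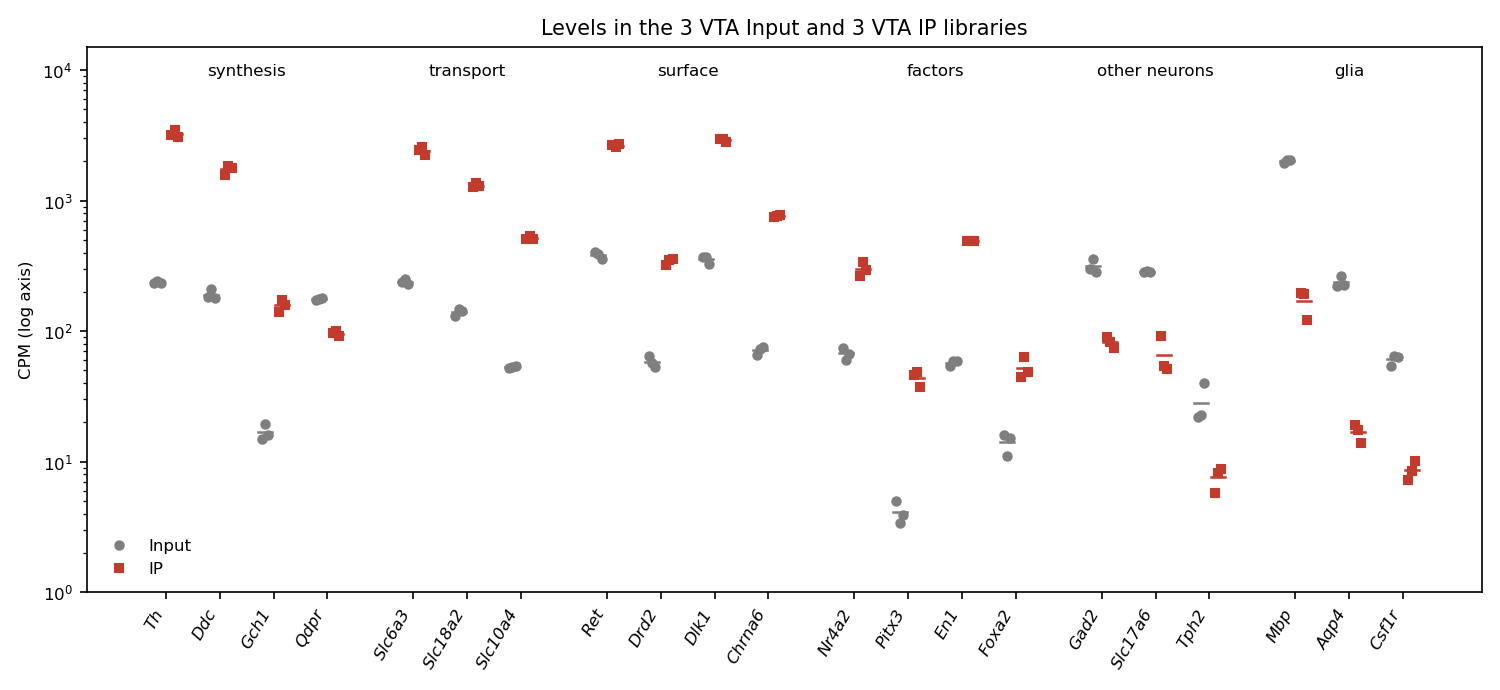
Level of 21 genes in each of the 3 VTA Input (grey circles) and 3 VTA IP libraries (red squares), in CPM on a log axis, with lines at the group means. Genes of synthesis, transport, surface proteins and transcription factors are higher in every IP than in every Input library, except Qdpr, and markers of other neurons and glia are lower in every IP library.

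Of the 16 transcription factors of dopamine neurons, 13 rose, 2 fell and 1 did not pass, and their median log2 value was 1.72, that of all genes being −0.01. Pitx3, which drives Th in nigral neurons, was at 4.99, 3.40 and 3.93 CPM in Input and 46.0, 48.6 and 37.4 CPM in IP (3.47 ± 0.22). En1, which maintains adult dopamine neurons, was at 54.2, 59.3 and 58.8 CPM in Input and 494, 494 and 488 CPM in IP (3.06 ± 0.080). Foxa1 rose by 2.52 ± 0.11, Nr4a2 by 2.13 ± 0.11, En2 by 1.97 ± 0.14, Foxa2 by 1.89 ± 0.19 and Lmx1b by 1.84 ± 0.14. Smaller rises were those of Lmx1a (1.71 ± 0.22), Satb1 (1.49 ± 0.13), Bnc2 (1.15 ± 0.14) and Sox6 (0.49 ± 0.13). Otx2, a factor of ventral VTA neurons, rose from 7.13, 4.68 and 6.86 CPM to 20.1, 15.0 and 16 CPM (1.46 ± 0.27). Nfib, a factor found in glia and many neurons, fell from 92.4, 83.5 and 82.1 CPM to 8.07, 4.88 and 10.9 CPM (−3.41 ± 0.20). Tcf12 fell by 0.40 ± 0.14, a call that was lost without any one of the 3 Input libraries or IP replicate 3, and Ebf1 gave −0.49 ± 0.24 (adjusted p = 0.10; called without IP replicate 2, −0.70).

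All 14 genes of the signalling and surface list rose, with a median of 2.70. Ret, the signalling receptor for GDNF family factors, was at 403, 391 and 354 CPM in Input and 2643, 2555 and 2708 CPM in IP (2.76 ± 0.071), and its co-receptor Gfra1 rose by 1.96 ± 0.096. Drd2, the dopamine autoreceptor, rose from 64.2, 57.3 and 53.1 to 323, 351 and 358 CPM (2.55 ± 0.094). Kcnj6, the GIRK2 channel subunit through which that receptor acts, rose by 1.85 ± 0.11. Dlk1, a Notch-related membrane protein, rose by 3.01 ± 0.070, Ntsr1, the neurotensin receptor, by 2.88 ± 0.090, and Gucy2c, guanylyl cyclase C, by 2.90 ± 0.13. Sncg, gamma-synuclein, rose from 75.6, 101 and 78.8 to 596, 518 and 551 CPM (2.65 ± 0.11). Other members were Dcc (1.58 ± 0.096), a netrin receptor, Ebf3 (1.11 ± 0.099), a transcription factor, and Epha5 (1.07 ± 0.088), an ephrin receptor, besides a pair of nicotinic subunits. In the UMI libraries described below, 1 of 12 tested members was called higher in Cre-negative IP and 11 were not called. Of all genes tested there, 2.58% were called higher in Cre-negative IP. Mean levels of Ebf3 there were 132 CPM in IP and 33.1 CPM in Input without Cre. With Cre they were 43.6 and 30.9 CPM.

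Of 9 nicotinic acetylcholine receptor subunits, 7 rose and 1 fell, with a median of 2.03. Chrna6 and Chrnb3, which assemble together in dopamine neurons, were at 65.6, 72.4 and 76.1 CPM and at 43.9, 43.2 and 41.8 CPM in Input, and at 752, 767 and 781 CPM and 368, 407 and 391 CPM in IP (3.38 ± 0.081 and 3.15 ± 0.087). Chrna3 rose by 2.81 ± 0.19, Chrna5 by 2.50 ± 0.19 and Chrna4 by 2.03 ± 0.093. The widely used subunits Chrnb2 and Chrna7 rose less, by 1.08 ± 0.10 and 0.89 ± 0.18. Chrna2 fell, with 3.57, 4.11 and 6.86 CPM in Input and 0, 1.31 and 1.29 CPM in IP (−2.64 ± 0.82). That call was lost without Input replicate 3, and the value was −1.96 without IP replicate 1 and −3.37 without IP replicate 3. Chrnb4 gave 0.88 ± 0.58 and did not pass (adjusted p = 0.23).

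Markers of both tiers of midbrain dopamine neurons rose in the VTA IP. Of 11 ventral-tier markers, 9 rose and 2 fell, with a median of 1.83. Anxa1, an annexin of the most vulnerable ventral-tier cells, was at 3.92, 4.54 and 5.77 CPM in Input and 100, 90.9 and 138 CPM in IP, the largest rise of this list (21.7-fold, 4.44 ± 0.20). Ndnf, a secreted neurotrophic factor, rose by 2.88 ± 0.091, Atp2a3, a calcium pump of the endoplasmic reticulum, by 2.26 ± 0.28 and Kcns3, a modifying potassium channel subunit, by 1.83 ± 0.14. Serpine2, a protease inhibitor, rose by 0.40 ± 0.077. Fgf1, a growth factor, fell by 0.70 ± 0.10, and Grin2c, a glutamate receptor subunit, fell by 0.69 ± 0.20, a call that was lost without Input replicate 3 (−0.66, adjusted p = 0.0525).

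Of 19 tested VTA and dorsal-tier markers, 11 rose and 5 fell, where 23.5% and 25.6% of all genes tested did. The median of the list was 1.40. Calb1, the calcium-binding protein calbindin, was at 66.0, 60.6 and 84.9 CPM in Input and 678, 613 and 682 CPM in IP (9.08-fold, 3.18 ± 0.11), and Calb2, calretinin, rose by 1.33 ± 0.085. Lpl, lipoprotein lipase, rose from 8.20, 8.43 and 6.95 to 73.6, 45.9 and 65.7 CPM (2.96 ± 0.20). Neurod6, a transcription factor of a ventromedial VTA population, was at 0.713, 2.69 and 2.68 CPM in Input and 16.5, 19.1 and 17.4 CPM in IP. The peptide genes Grp (2.65 ± 0.29) and Cck (2.33 ± 0.11), the receptor gene Tacr3 (2.54 ± 0.11), Cyp26b1, which breaks down retinoic acid (2.09 ± 0.21), Igf1 (1.40 ± 0.15) and Cbln4, a synaptic organiser (0.63 ± 0.16), rose as well. The members that fell were Slc17a6, Cbln1, Vcan, Adcyap1 and Nts.

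Slc17a6, the vesicular glutamate transporter VGLUT2, was at 283, 288 and 283 CPM in Input and 92.6, 53.6 and 51.7 CPM in IP (−2.12 ± 0.16). IP replicate 1 was the highest of the 3, and none reached the Input range. Cbln1, of the same family as Cbln4, fell by 1.53 ± 0.14, Vcan, a matrix proteoglycan, by 1.48 ± 0.19 and Adcyap1, which encodes PACAP, by 1.34 ± 0.19. Nts, neurotensin, fell from 9.63, 4.39 and 5.69 CPM to 0.160, 0.563 and 1.08 CPM (−3.46 ± 0.69; −2.86 without IP replicate 1 and −4.34 without IP replicate 3).

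The neuropeptide and granin list was mixed, with 11 of 21 tested genes higher and 8 lower. Scg2, a granin of dense-core vesicles, rose from 761, 684 and 778 to 3431, 3295 and 3511 CPM (2.17 ± 0.069). The prohormone convertase Pcsk1 rose by 1.96 ± 0.12, Scg5 by 1.09 ± 0.080 and the granin Chgb by 1.00 ± 0.088. Cartpt, the CART prepropeptide, had the opposite pattern, at 253, 302 and 210 CPM in Input and 30.4, 23.1 and 19.7 CPM in IP (10.6-fold lower, −3.40 ± 0.16), and Sst, somatostatin, fell by 2.79 ± 0.30. Of 29 tested peptide and hormone receptors, 8 rose and 12 fell, where 23.5% and 25.6% of all genes tested did. Oprk1, the kappa opioid receptor, rose by 2.33 ± 0.14 and Ghsr, the ghrelin receptor, by 1.19 ± 0.21. Oprm1, the mu opioid receptor, fell from 9.63, 14.3 and 19.5 to 2.72, 1.50 and 1.72 CPM (−2.88 ± 0.37), Adcyap1r1, the PACAP receptor, fell by 0.60 ± 0.091 and the glial Ntsr2 fell by 3.62 ± 0.17.

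Among 33 channels of pacemaking and excitability, 13 rose and 14 fell, where 23.5% and 25.6% of all genes tested did. The median of the list was −0.10. Kcnn3, the SK3 calcium-activated channel, rose from 77.0, 75.7 and 73.7 to 345, 318 and 345 CPM (2.13 ± 0.083). Trpc6 rose by 2.33 ± 0.13 and Kcnd3, which carries A-type current, by 1.79 ± 0.082. Among the members that fell were the potassium channel genes Kcnc1 (by 2.24 ± 0.11) and Kcna2 (by 1.52 ± 0.084) and the cation channel gene Hcn2 (by 1.95 ± 0.091). With the median so near 0, its sign follows the scaling.

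Of 32 genes of synaptic vesicles and release, 23 rose and 6 fell, with a median of 0.72. Cadps2, a priming factor for monoamine and dense-core vesicles, rose from 153, 179 and 150 to 1181, 1202 and 1320 CPM (2.91 ± 0.087). Sv2c, a vesicle glycoprotein of basal ganglia neurons, rose by 2.55 ± 0.075 and Syt17 by 2.31 ± 0.094. The calcium sensor Syt1 rose by 2.06 ± 0.062 and the SNARE-binding Cplx1 by 1.90 ± 0.077. Vamp1, a vesicle SNARE, fell from 309, 372 and 302 to 60.4, 63.4 and 53.1 CPM (−2.51 ± 0.10). Active-zone genes divided, with 6 of 13 higher and 3 lower. Of all genes tested, 23.5% were higher and 25.6% lower. Erc2 rose by 2.09 ± 0.076, Ppfia2 by 1.04 ± 0.11 and Rims1 by 0.94 ± 0.073, whereas Pclo (−1.56 ± 0.11), Unc13c (−1.41 ± 0.16) and Rims2 (−0.66 ± 0.11) fell. The neurotrophic and guidance receptors divided evenly, with 11 of 25 tested genes in each direction: Robo2 rose by 1.80 ± 0.086 and Epha4 by 1.46 ± 0.093, and Unc5b, a netrin receptor, fell by 3.31 ± 0.18.

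**Figure D3:**
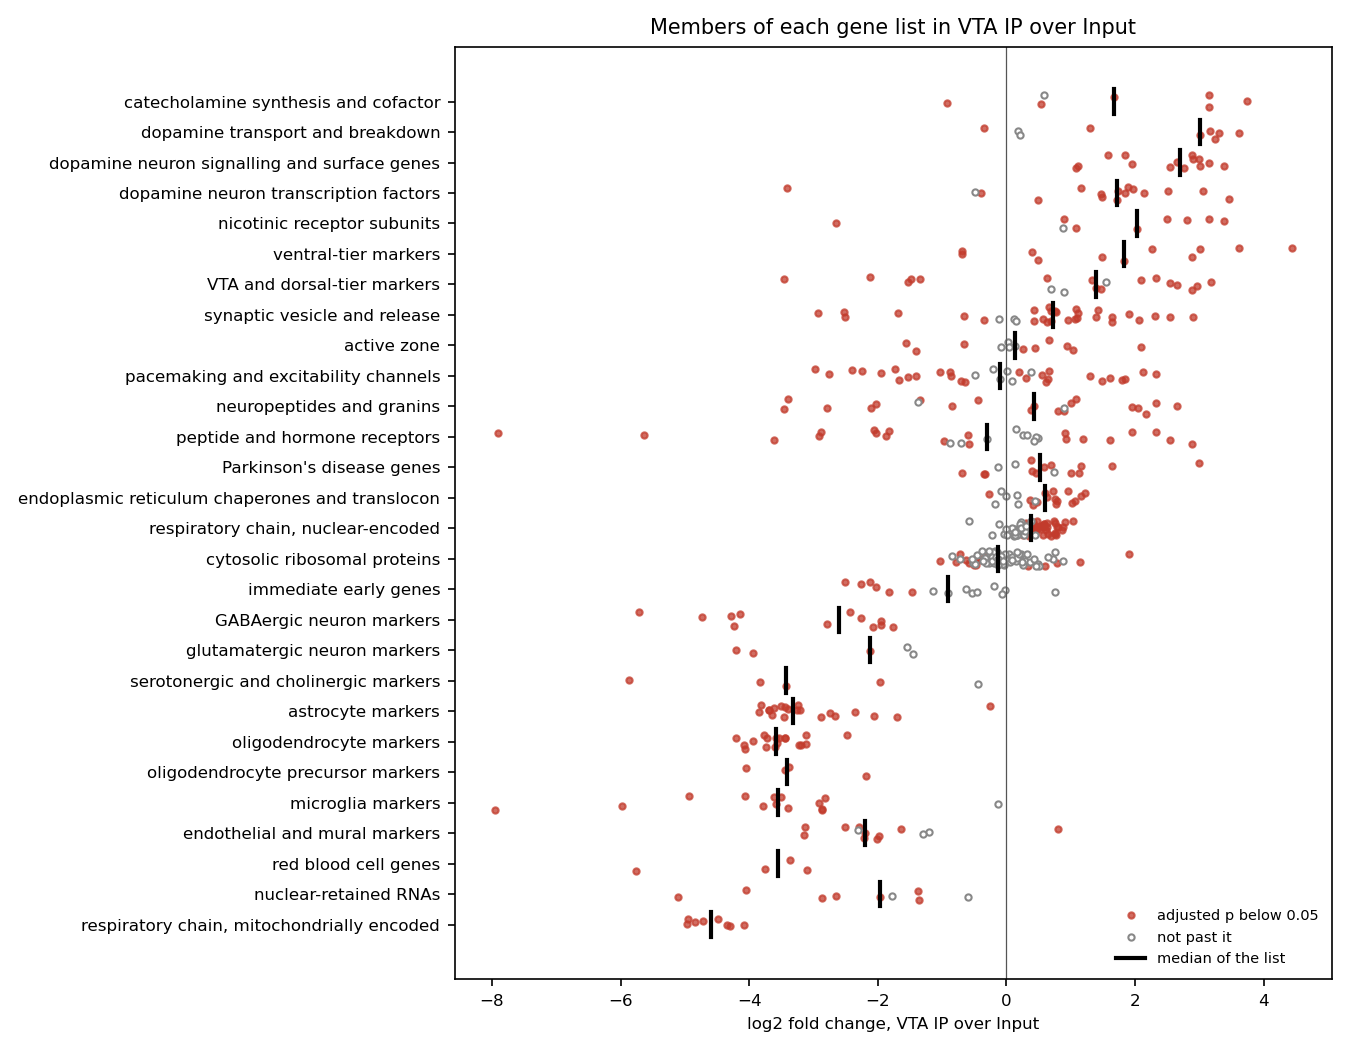
Log2 fold change (VTA IP over Input) of each tested member of 28 gene lists, one row per list; filled points passed the test, open points did not, and the bar is the list's median. The lists of synthesis, transport, surface genes, transcription factors and nicotinic subunits have medians from 1.67 to 3.01, and glial lists have medians from −3.33 to −3.58.

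Markers of other neurons of the ventral midbrain fell. All 12 tested GABAergic markers were lower in IP, with a median of −2.61, and their summed level was 1260 to 1459 CPM in Input and 269 to 379 CPM in IP. Gad1 and Gad2, which make GABA, were at 260, 326 and 229 CPM and 300, 355 and 284 CPM in Input and at 72.5, 54.8 and 27.4 CPM and 89.9, 83.1 and 74.5 CPM in IP (−2.43 ± 0.24 and −1.96 ± 0.10). Slc32a1, the vesicular GABA transporter, fell by 2.26 ± 0.16. Pvalb, of fast-spiking cells, fell by 4.23 ± 0.27, and Tal1 and Gata3, factors that specify midbrain GABAergic neurons, fell by 4.14 ± 0.42 and 4.29 ± 0.41.

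Beside Slc17a6, the glutamatergic markers Pou4f1 and Slc17a8 fell, 3 of 5 tested in all. Pou4f1 was at 10.7, 15.3 and 12.2 CPM in Input and 0.0799, 1.88 and 0.646 CPM in IP (−4.21 ± 0.60; −3.52 without IP replicate 1 and −5.24 without IP replicate 2). Slc17a8 was at 3.21, 4.04 and 12.1 CPM and at 0.160, 0.750 and 0.538 CPM (−3.93 ± 0.71; −3.02 without Input replicate 3). Of 5 tested serotonergic and cholinergic markers 4 fell, among them Tph2, which starts serotonin synthesis, at 22.1, 22.6 and 40.1 CPM in Input and 5.75, 8.25 and 8.72 CPM in IP (−1.97 ± 0.27), and the receptor gene Htr1a (−3.42 ± 0.30). Fev, a serotonergic factor, and Slc18a3, the vesicular acetylcholine transporter, had no read in the 3 IP libraries. Against a floor of 3 reads over the group, which covers counting error only, they were at least 8.78-fold and 19.4-fold lower than in Input.

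Glial transcripts fell in the VTA IP. Astrocyte markers summed to 9858 to 10120 CPM in Input and 1867 to 2427 CPM in IP, 20.9% of the Input level, and all 20 fell, with a median of −3.33. Aqp4, the water channel of astrocyte endfeet, was at 221, 265 and 224 CPM in Input and 19.1, 17.6 and 14.0 CPM in IP (−3.84 ± 0.13). Apoe fell by 3.81 ± 0.16, the gap junction gene Gja1 by 3.44 ± 0.11 and Slc1a2, the main glutamate transporter, by 2.06 ± 0.073. Clu, named here after its value was seen, was the least changed, at −0.26 ± 0.075, and its call was lost without IP replicate 2 or IP replicate 3.

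Oligodendrocyte markers summed to 8334 to 8590 CPM in Input and 515.7 to 838 CPM in IP (7.96%), and all 18 fell, with a median of −3.58. Mbp, myelin basic protein, was at 1935, 2036 and 2053 CPM in Input and 194, 193 and 121 CPM in IP (−3.60 ± 0.14). Mobp fell by 3.94 ± 0.10 and Cnp by 2.47 ± 0.098. All 4 tested markers of oligodendrocyte precursors fell, Pdgfra by 3.38 ± 0.16 and C1ql1 by 4.05 ± 0.25. Of 14 microglial markers 13 fell, including Csf1r (−2.87 ± 0.17), Cx3cr1 (−3.61 ± 0.27) and C1qa (−3.59 ± 0.31). Trem2, picked after its value was seen, had no read in any IP library and was at least 31.3-fold lower.

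Of 13 tested endothelial and mural markers, 9 fell and 1 rose. The one that rose was Bsg, basigin, a membrane protein also made by neurons, from 355, 361 and 357 to 685, 626 and 607 CPM (0.81 ± 0.071), and it brought the list's summed IP level to 126% of Input. Flt1, a VEGF receptor of endothelium, was at 42.4, 41.6 and 44.1 CPM in Input and 16.4, 6.38 and 4.52 CPM in IP (−2.20 ± 0.32; −3.04 without IP replicate 1). All 4 tested red blood cell genes fell (median −3.56), as did 2 of 3 tested ependymal and choroid plexus markers (median −2.17). No marker list of another cell type was at 0 in IP. The part of the residual signal of these cells in the rises reported above was not tested.

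Nuclear, mitochondrial and noncoding RNAs were among those that fell farthest. Malat1, a nuclear long noncoding RNA, was at 7472, 7034 and 7315 CPM in Input and 287, 223 and 137 CPM in IP (34.4-fold lower, −5.11 ± 0.19), and Meg3 fell by 4.06 ± 0.13, 2 of 7 nuclear-retained RNAs that fell of 9. Bc1, a neuronal noncoding RNA of dendrites, was at 4483, 3329 and 6084 CPM in Input and 88.8, 102 and 48.7 CPM in IP (−5.90 ± 0.25). The mitochondrial ribosomal RNAs mt-Rnr1 and mt-Rnr2 fell by 5.25 ± 0.11 and 5.19 ± 0.12. All 8 tested protein-coding genes of the mitochondrial genome fell, with a median of −4.60: mt-Co1 went from 8554, 8430 and 7825 to 541, 421 and 542 CPM (−4.07 ± 0.094) and mt-Cytb fell by 4.95 ± 0.13. Protein-coding genes among the largest falls included Smo, the Hedgehog signal transducer (−5.43 ± 0.34), and Creb5, a transcription factor (−5.25 ± 0.40).

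Nuclear-encoded subunits of the respiratory chain went the opposite way from the mitochondrial ones, since 44 of 70 tested rose and the other 26 did not pass, with a median of 0.38. Examples were Ndufs4 of complex I (0.91 ± 0.10), Atp5g3 (0.86 ± 0.087) and Atp5a1 (0.75 ± 0.077) of the ATP synthase. In the shallower UMI libraries described below, 3 of 70 were higher in IP with Cre (median 0.26) and 12 of 70 without it (median 0.24), and the difference between genotypes passed for 2 higher and 3 lower with Cre (median −0.08). Of all genes tested in the UMI libraries, 3.27% were higher in IP with Cre and 2.58% without it. Their difference between genotypes passed for 1.53% higher and 2.51% lower with Cre. Of 21 chaperone and translocon genes of the endoplasmic reticulum, 14 rose and 1 fell, with a median of 0.60, among them Rpn1 (1.07 ± 0.080), Hspa5, the chaperone BiP (1.02 ± 0.081), and Pdia3 (0.96 ± 0.073). Of 16 genes tied to Parkinson's disease, 10 rose and 3 fell. Uchl1, a neuronal ubiquitin hydrolase, rose from 419, 439 and 420 to 1367, 1400 and 1290 CPM (1.63 ± 0.066), Park7 rose by 1.16 ± 0.11 and Dnajc6, a clathrin uncoating factor, by 1.13 ± 0.069. In the UMI libraries, 3 of 15 tested genes of this list were higher in IP with Cre (median 0.62) and 4 of 15 without it (median 0.90). Their difference between genotypes passed for 1, higher with Cre (median −0.23). In the full-length libraries, 4 of 19 tested genes of calcium stores and buffers rose and 8 fell, where 23.5% and 25.6% of all genes tested did. Ryr2 and Itpr2, calcium release channels, fell, with log2 values of −1.88 ± 0.20 and −2.58 ± 0.26. Of 15 tested immediate early genes 6 fell and the other 9 did not pass, the falls including Egr1 (−2.12 ± 0.29) and Arc (−2.03 ± 0.27).

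Cytosolic ribosomal protein genes changed little, with 5 of 75 tested higher, 12 lower and a median of −0.13, where 23.5% of all genes tested were higher and 25.6% lower. The summed level of the ribosomal protein genes was 2342 to 2431 CPM in Input and 2155 to 2390 CPM in IP, and many have processed copies that can take reads. Rpl22, the gene whose product carries the tag, was at 44.6, 45.6 and 48.1 CPM in Input and 29.2, 21.4 and 34.2 CPM in IP (−0.73 ± 0.17, not called with total counts), and its paralog Rpl22l1 gave 0.32 ± 0.25 (adjusted p = 0.30).

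Several genes outside the dopamine lists had rises as large. Fgf20, a growth factor, was at 2.14, 1.56 and 0.418 CPM in Input and 23.2, 20.1 and 13.5 CPM in IP (3.96 ± 0.44). Ano2, a calcium-activated chloride channel, rose from 4.28, 2.98 and 2.76 to 34.9, 41.4 and 45.7 CPM (3.68 ± 0.23). Vill, a villin-like actin regulator, rose by 3.48 ± 0.24 and Slc39a4, a zinc transporter, by 3.44 ± 0.20.

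The largest rise among genes with a mean of at least 10 CPM belonged to a gene of another kind. Bcar1, an adaptor of focal adhesions (chr8:111710474-111743809), was at 44.9, 49.1 and 47.7 CPM in Input and 2073, 2074 and 2026 CPM in IP (42.3-fold, 5.40 ± 0.078). Its family member Nedd9 rose from 18.9, 13.7 and 15.2 to 397, 423 and 392 CPM (4.70 ± 0.11), and Yeats2, a histone reader, from 22.8, 18.4 and 21.4 to 356, 346 and 484 CPM (4.25 ± 0.14). The list of off-target genes to which Bcar1 and Nedd9 belong was drawn from genes enriched in striatal IPs of this series, with midbrain results also known, so their direction here is not independent evidence. Of its 5 tested members 4 rose, Sh3pxd2a by 2.32 ± 0.14 and Efs by 1.95 ± 0.31 besides, and Sh3pxd2b fell by 2.53 ± 0.26. Cre-negative mice, which have no tagged ribosomes, bear on these genes below.

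To ask which of these enrichments differed from those of neighbouring tissue, IP over Input in VTA was compared with that in SNc and in SNr, 3 IP and 3 Input libraries each, in a single fit of 18 libraries and 17235 genes. The difference (VTA minus SNc) passed for 1159 genes (6.72%), 310 (1.8%) higher and 849 (4.93%) lower, and the difference VTA minus SNr for 1031 genes (5.98%), 285 (1.65%) higher and 746 (4.33%) lower. SNc IP replicate 1 stood apart from the other SNc IP libraries, with 1.41% mitochondrial reads against 3.41% and 3.74%, and without it the SNc difference passed for 2270 genes, 938 higher and 1332 lower. The differences from SNc given below had the same sign and call without that library, with values from −5.09 (Tph2) to 2.77 (Lpl). Both differences share the VTA libraries. SNr holds few dopamine cell bodies, and its Input levels of dopamine neuron genes such as Th were lower.

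Calb1 and Lpl set the VTA apart from both neighbours. Calb1 was at 678, 613 and 682 CPM in VTA IP, 190, 204 and 169 CPM in SNc IP and 59.2, 77.4 and 42.5 CPM in SNr IP, while Input levels were alike in the 3 regions, from 55.9 to 84.9 CPM. The difference in log2 fold change was 1.56 ± 0.22 against SNc (adjusted p = 8e-05) and 3.42 ± 0.23 against SNr (adjusted p = 3e-09). Lpl, at 73.6, 45.9 and 65.7 CPM in VTA IP, was at most 3.69 CPM in SNc IP and 17.1 CPM in SNr IP, with differences of 2.98 ± 0.62 (3.59 without SNc IP replicate 2) and 3.94 ± 0.57 (4.87 without SNr IP replicate 3). Against SNc, Otx1 (2.50 ± 0.57), a homeobox factor, and Amotl1 (2.04 ± 0.29), a junction protein, were also higher. Against SNr, Cyp26b1 (3.52 ± 0.63), Ano2 (3.22 ± 0.71), Otx2 (3.06 ± 0.77) and Tacr3 (1.56 ± 0.34) were higher. The Otx2 call was lost without VTA Input replicate 2, and without SNr IP replicate 2 the values of Otx2 and Ano2 became 4.01 and 3.85. Otx2, Cyp26b1 and Tacr3 were not called higher in VTA than in SNc.

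Other genes were captured less from VTA than from the neighbours relative to their Input. Cartpt is the clearest case: its Input level was 253, 302 and 210 CPM in VTA but 4.30, 5.08 and 4.73 CPM in SNc and 2.29, 4.25 and 5.19 CPM in SNr, and its IP level was 30.4, 23.1 and 19.7 CPM in VTA and 14.0, 20.2 and 8.63 CPM in SNc. The difference was −5.01 ± 0.47 against SNc and −4.03 ± 0.52 against SNr (−3.29 without SNr IP replicate 1). Slc17a6 differed by −1.72 ± 0.33 from SNc, where IP levels were 94.8, 180 and 174 CPM, and by −2.44 ± 0.37 from SNr. Cbln1 (−2.08 ± 0.47) and Tph2 (−4.61 ± 0.96) were lower than in SNc, and both had higher Input levels in VTA. Sncg, at 596, 518 and 551 CPM in VTA IP and 730, 1050 and 1138 CPM in SNc IP, was lower than in SNc too (difference −1.89 ± 0.25).

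The enrichment of Th itself was not called different between VTA and SNc (difference 0.07 ± 0.31, adjusted p = 0.96), nor was that of Slc6a3 (−0.48 ± 0.27, adjusted p = 0.33). Against SNr both were lower, by −2.02 ± 0.32 and −2.16 ± 0.27. Th in Input was 235, 243 and 233 CPM in VTA and 49.7, 22.1 and 37.9 CPM in SNr, whereas in IP it was 3157, 3458 and 3076 CPM and 2313, 2211 and 1519 CPM. Across lists, 10 of 14 signalling and surface genes and 9 of 16 transcription factors were less enriched in VTA than in SNr, Foxa2 by −4.65 ± 0.73 (−3.78 without SNr Input replicate 2 and −5.60 without SNr Input replicate 3) and the ghrelin receptor Ghsr by −4.12 ± 0.54.

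Glial transcripts were depleted more from the VTA IP than from the others. Of 20 astrocyte markers 19 had a lower IP over Input in VTA than in SNc and 18 a lower one than in SNr, and for the 18 oligodendrocyte markers the counts were 18 and 15. Aqp4 in IP was 14.0 to 19.1 CPM in VTA and 50.2 to 105 CPM in SNc (−2.24 ± 0.33). Of 13 GABAergic markers, 10 had a lower IP over Input than in SNc and 6 a lower one than in SNr, and the other 3 and 7 did not pass. These glial and GABAergic levels differ together with the regional differences given above, and their part in those was not tested. For 34 of 70 respiratory chain subunits of nuclear origin IP over Input was lower in VTA than in SNc, with a median difference of −0.75 against −0.18 for all genes; against SNr their median difference was 0.10.

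**Figure D4:**
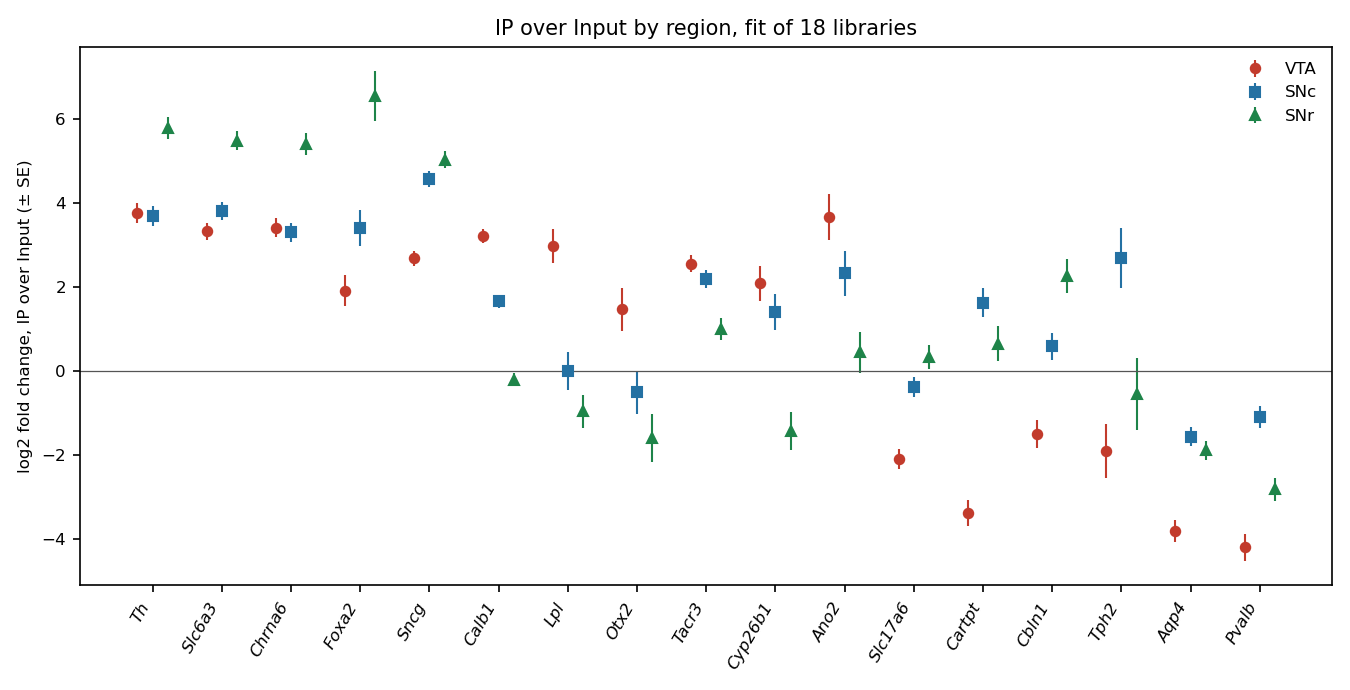
Log2 fold change of IP over Input (± SE, 3 IP and 3 Input libraries per region, fit of 18 libraries) for 17 genes in VTA, SNc and SNr. Calb1, Lpl, Otx2, Cyp26b1 and Ano2 are highest in VTA, while Th, Slc6a3 and Foxa2 are highest in SNr. Otx2 and Cyp26b1 were not called higher than in SNc, and the test of Ano2 against SNc is not given.

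Background capture was measured in a separate set of 20 VTA libraries, in which transcripts were counted by molecular identifier (UMI) on another plate. They comprised 4 IP and 4 Input libraries of Cre-positive mice and 6 IP and 6 Input libraries of Cre-negative littermates (DAT wt/wt;RiboTag+/-), which carry the RiboTag allele but no Cre. Whether these came from the same mice as the full-length libraries is not given in the sources used here. Depth was far lower, 35453 to 68966 UMIs in Cre-positive IP, 19805 to 58469 in Cre-negative IP, 50463 to 105954 in Cre-positive Input and 3606 to 101141 in Cre-negative Input, where 3 libraries had fewer than 15000.

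Of 10261 genes tested, 698 (6.8%) differed between IP and Input in Cre-positive mice, 336 (3.27%) higher and 362 (3.53%) lower, and 370 (3.61%) differed in Cre-negative mice, 265 (2.58%) higher and 105 (1.02%) lower. With TMMwsp scaling the Cre-positive split became 149 higher and 392 lower (27.5% higher, against 48.1%). Of the 316 genes higher in Cre-positive UMI IP and tested in both sets, 289 (91.5%) were also higher in the full-length VTA IP, which is 9.75% of the 2965 called higher there. Among genes lower, 301 of 328 (91.8%) were shared, 12.2% of 2466. Opposite calls numbered 1 and 2. Genes tested in both sets numbered 9493. Of the 214 of them higher in Cre-negative UMI IP, 119 (55.6%) were higher in the full-length VTA IP and 36 (16.8%) lower. Of the 102 lower in Cre-negative UMI IP, 60 (58.8%) were lower in the full-length VTA IP and 25 (24.5%) higher. The difference between genotypes passed for 415 genes (4.04%), 157 (1.53%) higher and 258 (2.51%) lower with Cre.

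Some of the dopamine neuron transcripts were enriched more with Cre than without it. The difference between genotypes was called higher with Cre for 2 of 7 tested genes of synthesis, with 1 (Qdpr, −1.63 ± 0.43) lower, for 4 of 9 of transport and breakdown, for 2 of 13 transcription factors and for 7 of 12 signalling and surface genes; the others did not pass. Th in Cre-positive IP lay between 2743 and 3361 CPM against 211 to 391 CPM in Input (3.20 ± 0.28, n = 4), and in Cre-negative IP between 236 and 745 CPM against 0 to 263 CPM (1.11 ± 0.30, n = 6, adjusted p = 0.014). That Cre-negative rise of Th did not pass with TMMwsp scaling, and the difference between genotypes was 2.10 ± 0.41. Slc18a2 rose by 3.55 ± 0.32 with Cre and gave −0.37 ± 0.46 without it, a difference of 3.92 ± 0.56. The differences of Slc6a3, Ddc, Slc10a4, En1 and Dlk1 were 2.77 ± 0.45, 2.44 ± 0.46, 3.30 ± 0.71, 4.54 ± 0.73 and 3.45 ± 0.41. That of Ret, 2.30 ± 0.69, was lost without Cre-positive Input replicate 3 or 4, with TMMwsp scaling, with no filter on low counts and without the shallow libraries.

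Depletion depended on the genotype as well. Slc17a6 in Cre-positive IP was at 27.4 to 52.5 CPM against 198 to 346 CPM in Input, and in Cre-negative IP at 207 to 382 CPM (difference −3.32 ± 0.59). Cartpt, at 31.5 to 121 CPM in Cre-positive IP, was at 566 to 1618 CPM in Cre-negative IP (difference −4.23 ± 0.45). Malat1 was at 137 to 409 CPM in Cre-positive IP and 3077 to 6663 CPM in Cre-negative IP (−4.01 ± 0.41), and mt-Co1 differed by −3.21 ± 0.40. In Cre-negative mice astrocyte markers were called for 1 higher and 1 lower of 20 tested and 2 of 18 oligodendrocyte markers were lower, whereas 16 and 14 were lower with Cre. The difference between genotypes was called lower with Cre for 12 of 20 astrocyte and 12 of 18 oligodendrocyte markers. The other markers did not pass, and 2.51% of all genes tested were lower with Cre. Bsg, the endothelial marker that rose in the full-length IP, had mean levels of 855 CPM in IP and 495 CPM in Input with Cre. Without Cre its means were 607 and 347 CPM.

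Of the 4 tested members of the off-target list, 2 rose with Cre and all 4 without it. Bcar1 was at 552 to 740 CPM in Cre-positive IP and 2740.1 to 13886 CPM in Cre-negative IP, against 12.2 to 46.9 CPM in Cre-positive Input, and rose by 4.16 ± 0.44 with Cre and 5.95 ± 0.34 without. Nedd9 rose by 4.34 ± 0.78 (5.55 without Cre-positive Input replicate 3) and 6.18 ± 0.51, and Yeats2, which is not on the list, by 3.69 ± 0.72 and 5.66 ± 0.42. The differences between genotypes, −1.79 ± 0.72, −1.84 ± 2.4 and −1.97 ± 1.6, did not pass (adjusted p = 0.14, 0.77 and 0.57), but that of Bcar1 did without the 3 shallow Cre-negative Input libraries (−2.24). Sh3pxd2a rose in Cre-negative IP (6.13 ± 0.62), gave 0.88 ± 0.88 in Cre-positive IP, and the difference of −5.25 ± 1.4 was lost without Cre-positive Input replicate 2.

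**Figure D5:**
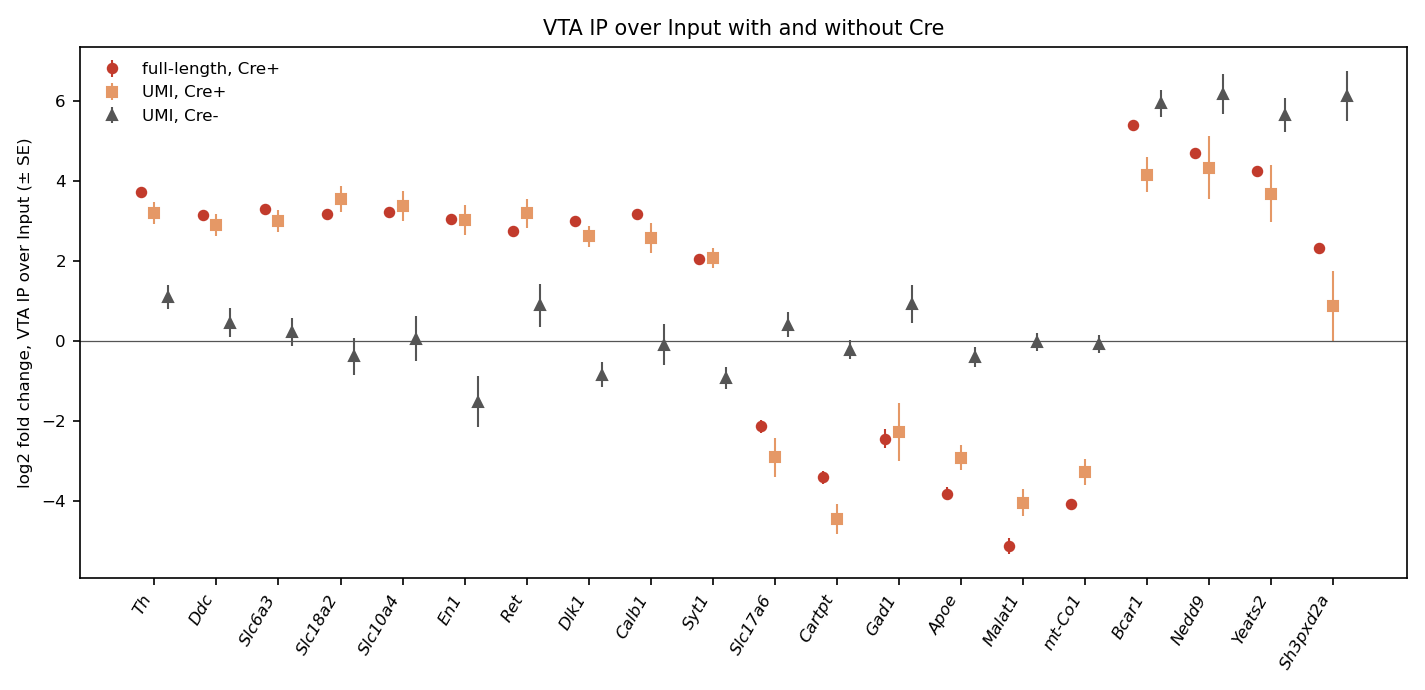
Log2 fold change of VTA IP over Input (± SE) for 20 genes in the full-length Cre-positive libraries (3 IP, 3 Input), the UMI Cre-positive libraries (4 and 4) and the UMI Cre-negative libraries (6 and 6). The dopamine neuron genes from Th to Dlk1 are higher in both Cre-positive sets than in Cre-negative libraries, while Bcar1, Nedd9 and Yeats2 are high in all 3 sets.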

How the data were processed

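The deposited full-length table holds raw read counts per gene. The authors prepared SMARTer stranded total RNA libraries depleted of ribosomal RNA, filtered out ribosomal reads (Bowtie2), mapped the rest by STAR 2.6.7a onto GRCm38.p6, and tallied unique exonic reads per gene in featureCounts 1.6. The deposited UMI table holds counts of distinct molecules per gene; both tables were used as deposited. The 6 VTA libraries were fitted with edgeR 4.0.16 (R 4.3.3) under its filter on low counts, with TMM scaling and the quasi-likelihood test, IP against Input. Each standard error was derived from the F statistic as the absolute log2 value over the root of F. It therefore restates the test. For genes of few counts, such as Nedd9 and Yeats2 in the genotype difference, it need not match the errors of the parts. Region differences came from 1 fit of 18 libraries (IP over Input, VTA minus the other region), and the Cre comparison from 1 fit of 20 UMI libraries, with genes of at least 10 UMIs in all. Alternatives were DESeq2 1.42.0 (the study's test), other scalings, no filter, fits without mitochondrial genes or with all 18 libraries, and leaving out each library. Fits without 3 Cre-negative Input libraries of under 15000 UMIs were added after the data were seen.

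The gene lists were written by hand, partly from the study, and members and lists were chosen with earlier results of these data known. Genes were named by rule: members of the neuron and capture lists, up to 6 members of each other list by smallest p, the 12 largest changes per direction at a mean of at least 10 CPM and the 6 with the smallest p, and the 8 largest region differences per direction; in the UMI fits, the 6 smallest p per direction. Coordinates and exon lengths are from GENCODE vM21 (55141 of 55487 genes matched). Replicate counts differed by more than sampling noise in every pair of full-length VTA libraries (chi-square per degree of freedom from 2.663 to 11.86), so each was counted as 1 sample. The test was also run on simulated counts for the VTA comparison, in which few genes changed, equally in number and size in each direction. That simulation does not cover the many unequal changes seen here or their dependence on the scaling. Some genes are not reported here.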

Additional observations from a re-analysis of the deposited data

Results flagged for a closer look

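In the UMI libraries, 9 of 88 groups checked had 1 library far from the rest. The rule flags about 1 in 20 groups by chance for normally distributed values. That rate does not hold for sparse UMI levels, so the number flagged cannot be set against chance. Acap2 had 34600 CPM in Cre-positive IP replicate 3 and at most 13.7 CPM in the other Cre-positive IP libraries, so its rise rests on that library. The highest library also stood apart for Slc17a6 (52.5 CPM) and Syt1 (3680 CPM) in Cre-positive IP, for Nedd9 in Cre-positive Input (19.8 CPM), Cre-negative IP (1660 CPM) and Cre-negative Input (78.8 CPM), and in Cre-negative Input for Sh3pxd2a (78.8 CPM), Yeats2 (158 CPM) and Gm10800 (1080 CPM). The flagged Input levels are those of 1 or a few UMIs, because 1 UMI is a large CPM value at these depths.

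Differences in IP over Input that passed a test of the difference itself, in log2, were as follows. Between VTA and SNc they were positive for Lpl (2.98), Otx1 (2.50), Cbln4 (2.05), Amotl1 (2.04) and Calb1 (1.56), and negative for Cartpt (−5.01), Tph2 (−4.61), Aqp4 (−2.24), Cbln1 (−2.08), Sncg (−1.89), Slc17a6 (−1.72) and Pitx3 (−1.33). The calls of Cbln4 and Pitx3 were lost when any one of 8 and 7 libraries was left out, among them each VTA Input library. Between VTA and SNr the values were positive for Lpl (3.94), Cyp26b1 (3.52), Calb1 (3.42), Ano2 (3.22), Otx2 (3.06) and Tacr3 (1.56), and negative for Foxa2 (−4.65), Ghsr (−4.12), Cartpt (−4.03), Slc17a6 (−2.44), Slc6a3 (−2.16) and Th (−2.02). Between Cre-positive and Cre-negative UMI libraries they were positive for Acap2 (7.50), Lpl (7.12), En1 (4.54), Slc18a2 (3.92), Dlk1 (3.45), Slc10a4 (3.30), Syt1 (2.99), Slc6a3 (2.77), Calb1 (2.65), Ddc (2.44), Ret (2.30) and Th (2.10), and negative for Sh3pxd2a (−5.25), Cartpt (−4.23), Malat1 (−4.01), Slc17a6 (−3.32) and mt-Co1 (−3.21). The Lpl value rests on 13 UMIs in Cre-positive IP and none in Cre-positive Input or Cre-negative IP.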

How the results depend on the processing

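No paired analysis was possible because the labels give no number that ties an IP library to an Input library. The VTA count of 7245 genes ranged from 5857 to 7603 when 1 library was left out (2772 to 3652 higher, 3085 to 4074 lower), and other settings stayed within 1.5 times except 5638 higher with total counts. The SNc difference ranged from 722 to 2270 (145 to 938 higher, 522 to 1332 lower), the extremes being without SNc IP replicate 3 or 1 for the total; it fell by more than 1.5 times also without SNc Input replicate 1, VTA Input replicate 2, SNc IP replicate 2 or VTA IP replicate 3. The SNr difference ranged from 674 to 1431 (182 to 534 higher, 483 to 923 lower), the lowest without SNr Input replicate 2. The UMI Cre-positive count ranged from 430 to 615 (216 to 313 higher, 214 to 317 lower), the lowest without Cre-positive IP replicate 4, and the genotype difference from 295 to 385 (126 to 150 higher, 169 to 235 lower). DESeq2 gave 513 genes higher than in SNc, 1548 differing from SNr (1187 lower), 383 in Cre-positive UMI libraries (169 higher, 214 lower), 172 in Cre-negative (134 and 38) and 257 for the genotype difference (88 and 169). TMMwsp scaling gave 149 higher in Cre-positive, 211 in Cre-negative (114 higher) and 250 for the genotype difference (71 higher); no filter gave 65 lower in Cre-negative and 275 for the genotype difference (96 higher).

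Signs turned for Clu with total counts (0.08), the VTA minus SNc difference of Th without SNc IP replicate 2 or 3 (−0.14 to 0.44 with 1 library left out), Acap2 without Cre-positive IP replicate 3 (ranges −2.76 to 7.69, and −2.53 to 7.93 for the genotype difference), and mt-Co1 in Cre-negative IP without the shallow libraries (0.16). With total counts, Pts (0.93) and Maob (0.53) passed. In the fit of 18 libraries, Aldh2, Sox6, Tcf12, Chrna2, Grin2c, Cbln4 and Clu did not pass. The causes were not tested. Without a Cre-negative full-length IP, background capture was measured at UMI depth only, where low genes could not be tested.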
